A study of Mus musculus with 6 samples.

Results

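The mitochondrial ribosomal protein genes are the nuclear genes named Mrpl for the large subunit of the mitochondrial ribosome and Mrps for the small subunit. They were taken as every row of the deposited count table whose symbol is Mrpl or Mrps followed by a number and at most 1 letter, with pseudogenes marked -ps left out, which gave 78 of 49568 gene symbols. The rule used symbols only and no measured value. Of the 78 genes, 77 had enough reads to be tested, and Mrpl53 was listed at 0 in all 6 lungs.

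The samples were whole lungs of 4-month-old female mice on a C57BL/6 background, 3 TNF+ (labelled TNF-Tg) and 3 TNF- (labelled WT), with 1 library per mouse. TNF+ mice carry and overexpress 1 copy of the human TNF gene, which drives chronic inflammatory arthritis and lung disease, and TNF- mice were their littermates without it. The promoter of the transgene and the cells that express it are not given in the sources used here. The comparison asks how transcript levels in the lung differ between the genotypes.

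Mitochondria keep a small genome that encodes core subunits of the respiratory chain and the ATP synthase, and a dedicated ribosome translates their mRNAs at the inner membrane. Its RNAs come from the mitochondrial genome, but all of its proteins are encoded in the nucleus, made in the cytosol and imported. Some of these proteins descend from bacterial ribosomal proteins and others, many on the outer surface of the particle, have no bacterial counterpart.

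The libraries held 25396923 to 32529408 counts. Mouse Tnf was higher in TNF+ lungs (log2 fold change 3.62 ± 0.46 SE, adjusted p = 0.000471, edgeR), and the human transgene itself was not analysed here. Markers of alveolar type 2 cells, a defining cell type of lung, summed to 14750 to 25797 CPM (counts per 1e6 of the scaled library total) over the 6 lungs. Among the lungs, 2 stood apart. In TNF+ 1, the ribosomal RNA-like gene Gm42418 took 5.22% of all counts against 0.0774% to 0.274% in the other lungs. In TNF- 1, skeletal muscle markers summed to 1464 CPM and squamous epithelial markers to 3419 CPM, against at most 36.7 and 2.15 CPM elsewhere. Counts of members and of named genes are therefore also given without these lungs.

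All 78 genes were located on the GENCODE M21 annotation of GRCm38 and lie on 17 chromosomes, so they are spread over the genome and do not form a cluster. Their median protein-coding transcript is 1051.5 bases long, with a range of 405 to 6073 bases. Exon bases were shared with another gene on the same strand for 8 genes and on the opposite strand for 28, and 40 genes had no 100-base window that recurs elsewhere in the annotated transcripts. A protein-coding gene starts within 1000 bases on the opposite strand, facing away, for 18 of them.

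Short stretches of promoter are shown for motif letters found in part of these genes. Among RefSeq promoter windows (GRCm38.p6, 250 bases before to 50 bases after a start), 75 windows matched 69 of the 78 genes. Letters of 5 motifs were searched on both strands, and matches of different motifs overlapped in 2 of the 75 windows. The NRF1 letters, GCGC and TGCGC with 1 base of any kind between them, were in 17.3% of the windows of these genes and in 4.60% of all 32851 windows. Letters of the ETS family, CCGGAAG, were in 34.7% against 8.86%, and letters of YY1, AANATGGC, in 28.0% against 6.05%. At least 1 of these motifs was in 62.7% of the windows against 17.4% of all windows. The GC box GGGCGG was in 52.0% against 35.7%, while TATAAA was in 6.67% against 13.6%. NRF1, the ETS family factor GABP and YY1 are known regulators of nuclear genes for mitochondrial proteins, but a match is only a run of letters and says nothing on binding in these lungs. The 100 bases before the RefSeq start are printed 5′ to 3′ on the plus strand for the first gene by p-value that holds the NRF1, ETS or YY1 letters in these bases, among the 12 highest-ranked genes that rose, and for Mrps6, the gene that fell. Capitals mark the motif, as NRF1 letters in Mrpl45 (chr11:97315616-97315715), ETS letters in Mrpl52 (chr14:54426809-54426908), YY1 letters in Mrpl36 (chr13:73330909-73331008), these all on the reverse strand, and 2 GC boxes in Mrps6 (chr16:92058236-92058335). By the GENCODE positions, all of the Mrpl36 bases and part of the Mrps6 bases lie inside the annotated gene.
Mrpl45: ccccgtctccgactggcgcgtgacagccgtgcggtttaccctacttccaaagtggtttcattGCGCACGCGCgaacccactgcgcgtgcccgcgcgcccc
Mrpl52: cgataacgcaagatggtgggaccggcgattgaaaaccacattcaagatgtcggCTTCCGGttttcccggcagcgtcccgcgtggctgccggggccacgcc
Mrpl36: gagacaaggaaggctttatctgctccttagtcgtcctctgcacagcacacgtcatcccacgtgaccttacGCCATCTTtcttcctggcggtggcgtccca
Mrps6: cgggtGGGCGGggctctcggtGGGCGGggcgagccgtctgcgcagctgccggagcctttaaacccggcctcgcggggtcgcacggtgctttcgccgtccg

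The log2 fold changes of mitochondrial ribosomal protein genes were mostly small and positive, and most of the genes did not pass the test. Of the 77 tested, 26 passed an adjusted p of 0.05 (edgeR quasi-likelihood test, Benjamini-Hochberg over 19199 genes), 25 of them higher and 1 lower. Among all genes tested, 47.4% passed, with 24.0% higher and 23.4% lower, so the share of 33.8% among the 77 genes was under the background and the number that fell was far under it. The median log2 fold change was 0.26 for these genes and 0.03 for all genes tested, and the fold change was positive for 66 of 77 against 10041 of 19199. The differences were also small, with a median size of 0.27 against 0.48 on the log2 scale and a range of -0.68 to 1.08. A change of 1 log2 unit or more besides the adjusted p was reached by 1 gene, Mrpl38, where the background is 22.5%. In whole lung, fewer cells of a type and less RNA per cell cannot be told apart, nor can more cells and more RNA.

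The count changed with the lungs used. Without TNF+ 1 it was 9, where 37.3% of all genes passed, and without TNF- 1 it was 12, where 37.8% passed. It was 16 without TNF+ 2 (37.6% of all genes), 17 without TNF+ 3 (41.9%), 15 without TNF- 2 (37.8%) and 30 without TNF- 3 (46.6%). With both TNF+ 1 and TNF- 1 left out, 6 genes passed, 5 higher and 1 lower, where 31.2% of all genes passed, and the median was 0.16. DESeq2 on all 6 lungs gave 21 of 77, where 40.3% of all genes passed. Of the 77 genes, 32.5% rose on all 6 lungs, above the background of 24.0%, but 10.4% without TNF+ 1 and 14.3% without TNF- 1, below backgrounds of 17.2% and 18.0%. The share was also just under the background without TNF+ 3 (20.8% against 21.1%) and without TNF- 2 (18.2% against 18.3%). It was above it without TNF+ 2 (19.5% against 18.6%) and without TNF- 3 (37.7% against 23.3%). The sign was steadier than the call, and 66 of all 77 tested genes kept theirs in each of 16 alternative fits. So did all 26 genes that passed, but these were picked by p-value, and the fits reuse the same lungs.

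**Figure D1:**
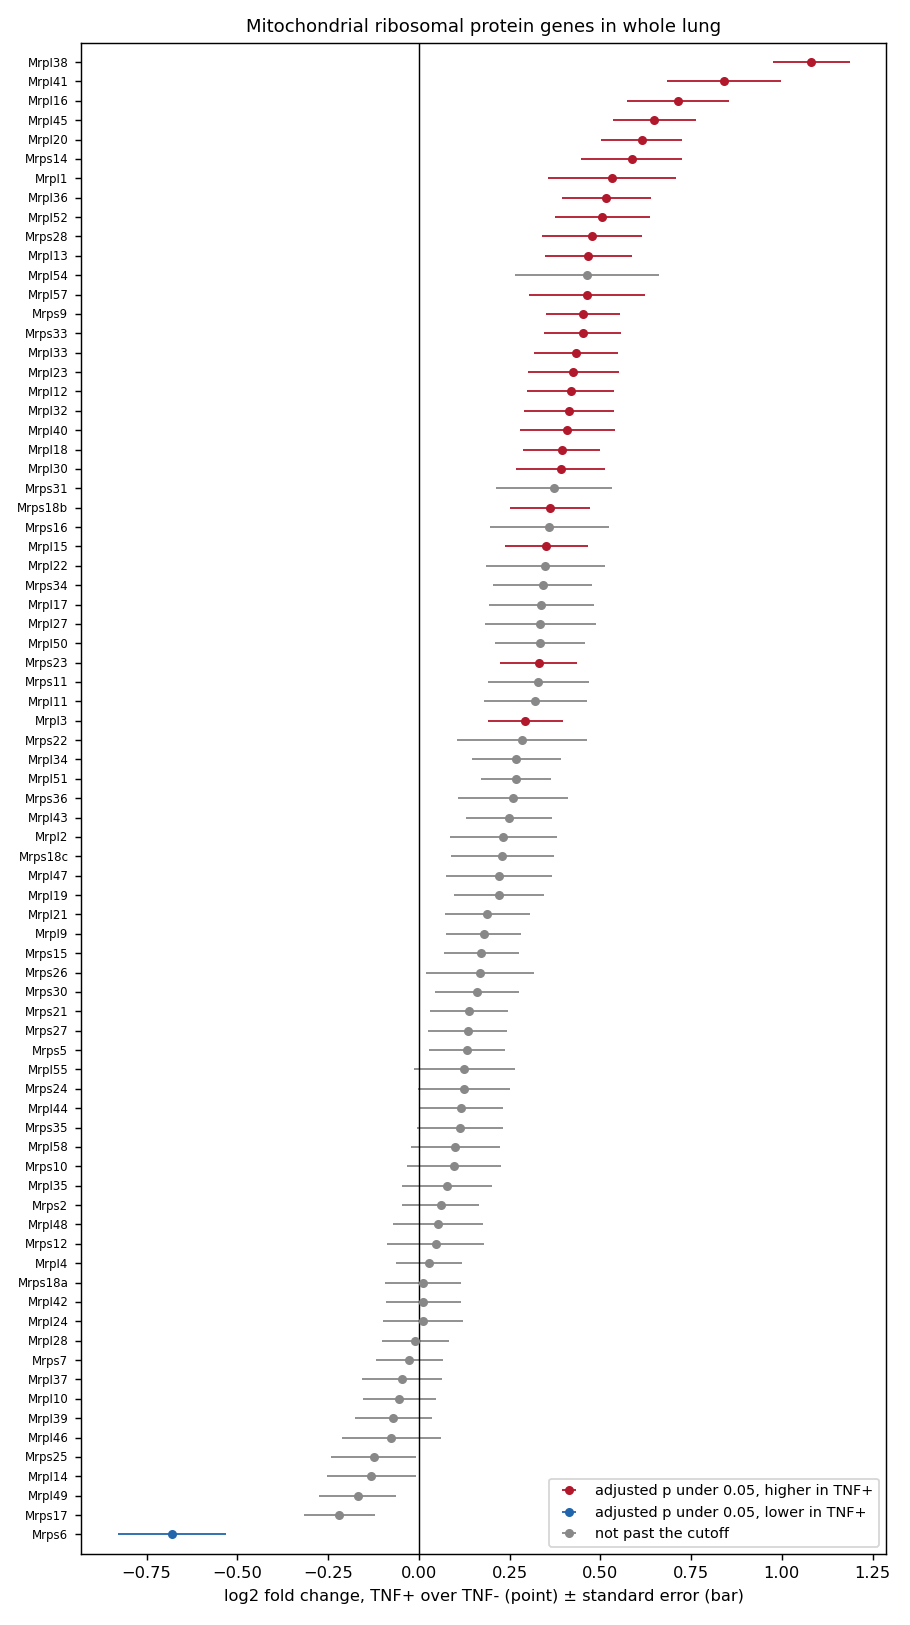
Log2 fold change of the 77 tested genes, TNF+ over TNF- (x axis, log2 units), with 1 gene per row, the point for the estimate and the bar for its standard error; red genes passed an adjusted p of 0.05 as higher, the blue gene as lower, and grey genes did not pass. Most points sit between 0 and 0.50, with Mrpl38 at 1.08 and Mrps6 at -0.68 standing apart at the ends.

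**Figure D2:**
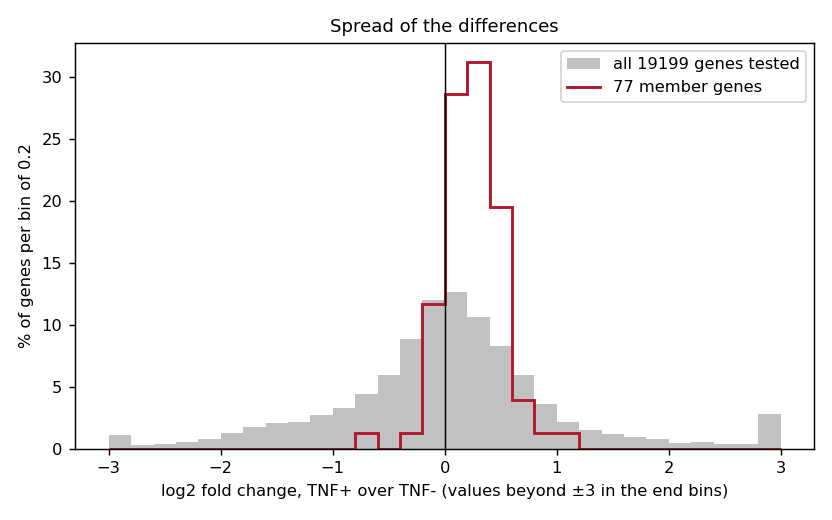
Share of genes (y axis, % per bin) by log2 fold change (x axis, bins of 0.2, with values beyond ±3 in the end bins) for all 19199 genes tested (grey) and the 77 mitochondrial ribosomal protein genes (red line). The red line is narrow and peaks just right of 0, around its median of 0.26, while the grey distribution is wide and centred near 0.03.

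TNF+ and TNF- values did not overlap for 40 genes that were higher in TNF+ lungs and 3 that were lower (Mrps6, Mrps17 and Mrpl49), where 30.5% and 28.2% of all genes are separated this way. Each gene was set against its own mean over the TNF- lungs on the log2 CPM scale. The median deviation of the 77 genes was then 0.25, 0.29 and 0.17 in TNF+ lungs 1 to 3 and -0.07, 0.01 and 0.07 in TNF- lungs 1 to 3. Genes above the TNF- mean numbered 67, 66 and 58 for TNF+ lungs 1 to 3 and 20, 41 and 59 for TNF- lungs 1 to 3. By this count TNF+ 3 and TNF- 3 overlapped and TNF- 1 was the lowest lung, while by the median the groups were apart.

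Summed over the genes, the level was 1747, 1739 and 1623 CPM in TNF+ lungs and 1364, 1449 and 1531 CPM in TNF- lungs. The groups did not overlap, with means of 1703 ± 69.6 and 1448 ± 83.5 CPM (SD, n = 3 each) and a ratio of 1.18. The ratio was 1.14 without TNF- 1 and 1.16 without TNF+ 1. Such a sum follows the most abundant genes, so it carries less of the genes with few reads than the median does.

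**Figure D3:**
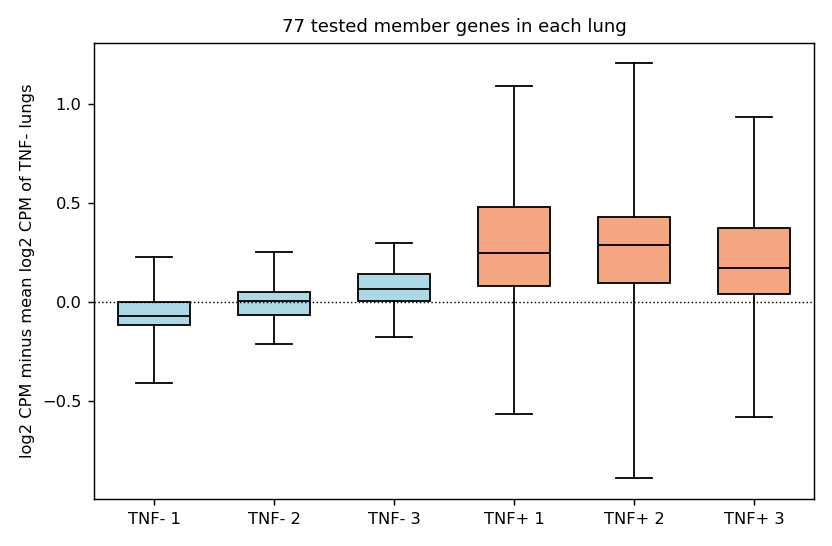
Deviation of each of the 77 genes from its mean over the TNF- lungs (y axis, log2 CPM) in each lung (x axis); the line is the median, the box the middle 50% of genes and the whiskers the full range. The TNF+ boxes have medians of 0.17 to 0.29 and the TNF- boxes -0.07 to 0.07, while the whiskers of all lungs cross 0.

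Mrpl38, a mitochondria-specific protein of the central protuberance of the large subunit, had the largest change (chr11:116131817-116138868, minus strand). Its normalized counts, which are counts scaled to a common library size, were 1911, 2067 and 1711 in TNF+ lungs and 850, 864 and 976 in TNF- lungs. The lowest TNF+ lung was thus well above the highest TNF- lung, and the means of 1896 ± 178 and 896 ± 69.2 (SD, n = 3) gave a log2 fold change of 1.08 ± 0.11 SE (adjusted p = 0.000125, edgeR). In the alternative fits its log2 fold change lay between 1.00 and 1.14.

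Mrpl41, another mitochondria-specific protein of the large subunit (chr2:24974117-24975098, minus strand), had 489, 476 and 430 normalized counts in TNF+ lungs and 214, 258 and 306 in TNF- lungs. The groups were apart, although the TNF- lungs were spread widely (log2 fold change 0.84 ± 0.16 SE, adjusted p = 0.00306, edgeR).
Mrpl45, which anchors the mitochondrial ribosome to the inner membrane beside the exit tunnel, lies at chr11:97315716-97329920 on the plus strand, directly after the bases printed above. Its normalized counts were 682, 680 and 624 in TNF+ lungs and 460, 385 and 421 in TNF- lungs. All TNF+ lungs were higher (log2 fold change 0.65 ± 0.12 SE, adjusted p = 0.00236, edgeR).

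Among proteins with a bacterial counterpart, Mrpl20 and Mrpl16 had the smallest p-values. Mrpl16, the homolog of a bacterial protein that lies near the tRNAs at the catalytic centre (chr19:11770391-11774960, plus strand), had 382, 489 and 396 normalized counts in TNF+ lungs and 254, 270 and 248 in TNF- lungs. TNF+ 2 was the highest and the TNF- lungs were close together (log2 fold change 0.71 ± 0.14 SE, adjusted p = 0.00400, edgeR). Mrpl20, whose bacterial homolog binds ribosomal RNA early in assembly (chr4:155802878-155809975, plus strand), had 810, 880 and 775 normalized counts in TNF+ lungs and 515, 511 and 585 in TNF- lungs. The groups did not overlap (log2 fold change 0.61 ± 0.11 SE, adjusted p = 0.00252, edgeR).

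Mrps6, a protein of the platform of the small subunit, was the only tested gene of the family that fell (chr16:92058270-92112227, plus strand). It had 229, 183 and 228 normalized counts in TNF+ lungs and 364, 314 and 347 in TNF- lungs. Every TNF+ lung was below every TNF- lung, and the log2 fold change was -0.68 ± 0.15 SE (adjusted p = 0.00649, edgeR). Its exons share bases with Slc5a3, a myo-inositol transporter gene on the same strand, and 14.5% of its 100-base windows recur in overlapping genes. Slc5a3 had 120, 113 and 149 normalized counts in TNF+ lungs and 273, 211 and 157 in TNF- lungs, also lower (log2 fold change -0.75 ± 0.23 SE, adjusted p = 0.0301, edgeR). The ratio of Slc5a3 to Mrps6 counts ran from 0.453 to 0.751 over the 6 lungs, and how far the counting divided reads between them was not tested.

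These 6 genes, Mrpl38, Mrpl45, Mrpl20, Mrpl41, Mrpl16 and Mrps6, passed the cutoff in each of the 16 alternative fits, also with TNF+ 1 and TNF- 1 left out together. The other 20 did not.

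**Figure D4:**
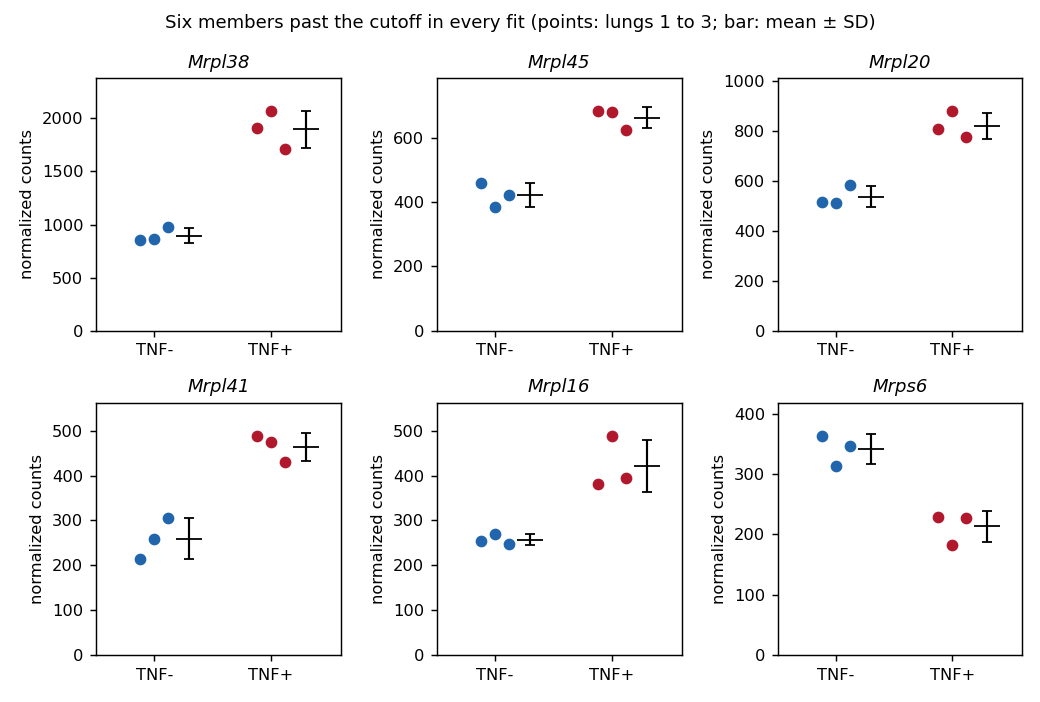
Normalized counts (y axis, from 0) of the 6 genes that passed in every alternative fit, in TNF- (blue) and TNF+ (red) lungs; points are lungs 1 to 3 from left to right, and the bar beside them is the mean ± SD. In each panel the groups are apart, with TNF+ higher for 5 genes and lower for Mrps6.

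Next by p-value among the genes that rose came 3 genes of the small subunit. Mrps9, whose bacterial homolog reaches the tRNA in the peptidyl site, had 748 to 829 normalized counts in TNF+ lungs and 552 to 595 in TNF- lungs (log2 fold change 0.45 ± 0.10 SE, adjusted p = 0.00710, edgeR). Mrps33, a mitochondria-specific protein of the head, had 552 to 603 and 412 to 443 (0.45 ± 0.11, adjusted p = 0.00902, edgeR). Mrps14, a protein of the head with a bacterial homolog, had 524 to 550 and 313 to 421 (0.59 ± 0.14, adjusted p = 0.00944, edgeR). None of the 3 overlapped between groups. With TNF+ 1 and TNF- 1 left out the adjusted p was 0.126 for Mrps9, 0.128 for Mrps33 and 0.114 for Mrps14, and without TNF+ 1 alone it was 0.0509 for Mrps33.

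The large subunit added Mrpl36, Mrpl13, Mrpl52 and Mrpl33. Mrpl36, a small zinc-binding protein with a bacterial homolog, had 521 to 594 normalized counts in TNF+ lungs and 353 to 429 in TNF- lungs (log2 fold change 0.52 ± 0.12 SE, adjusted p = 0.00950, edgeR). Mrpl52, a mitochondria-specific protein, had 1601, 1643 and 1291 against 930, 1073 and 1191, so TNF+ 3 came close to TNF- 3 (0.51 ± 0.13, adjusted p = 0.0141, edgeR). Mrpl13 and Mrpl33, both with bacterial homologs, had log2 fold changes of 0.47 ± 0.12 (adjusted p = 0.0131, edgeR) and 0.43 ± 0.12 (adjusted p = 0.0155, edgeR). Without TNF+ 1 the adjusted p was 0.0800 for Mrpl13, 0.0645 for Mrpl52 and 0.0956 for Mrpl33. Without TNF- 1 it was 0.0555 for Mrpl52 and 0.0583 for Mrpl33, and without TNF+ 2 it was 0.0507 for Mrpl52. For Mrpl36 it was 0.0912 with both TNF+ 1 and TNF- 1 left out.

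The other genes that rose were Mrpl1, Mrpl3, Mrpl12, Mrpl15, Mrpl18, Mrpl23, Mrpl30, Mrpl32, Mrpl40, Mrpl57, Mrps18b, Mrps23 and Mrps28, with log2 fold changes of 0.29 for Mrpl3 to 0.53 for Mrpl1. All of these calls were lost in part of the alternative fits, and that of Mrpl3 (adjusted p = 0.0458, edgeR) was kept in only 2 of 16. Mrpl12 forms the flexible stalk that recruits translation factors, and had 1315, 1222 and 1042 normalized counts in TNF+ lungs against 840, 850 and 986 in TNF- lungs (0.42 ± 0.12, adjusted p = 0.0209, edgeR). Its neighbours at the base of the stalk did not pass, and were chosen here after their values were seen. Mrpl11 had a log2 fold change of 0.32 (adjusted p = 0.0943, edgeR) and Mrpl10 one of -0.05 (adjusted p = 0.683, edgeR). Reads of Mrpl23 may be shared with its processed pseudogene Mrpl23-ps1, which was also higher (log2 fold change 0.47, adjusted p = 0.0222, edgeR) at 0.848 to 0.910 times the counts of Mrpl23.

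The 51 tested genes that passed in neither direction had log2 fold changes of -0.22 for Mrps17 to 0.46 for Mrpl54. In the large subunit they were Mrpl2, Mrpl4, Mrpl9, Mrpl10, Mrpl11, Mrpl14, Mrpl17, Mrpl19, Mrpl21, Mrpl22, Mrpl24, Mrpl27, Mrpl28, Mrpl34, Mrpl35, Mrpl37, Mrpl39, Mrpl42, Mrpl43, Mrpl44, Mrpl46, Mrpl47, Mrpl48, Mrpl49, Mrpl50, Mrpl51, Mrpl54, Mrpl55 and Mrpl58, with Mrps18a and Mrps30, which carry small-subunit names but sit in the large subunit. In the small subunit they were Mrps2, Mrps5, Mrps7, Mrps10, Mrps11, Mrps12, Mrps15, Mrps16, Mrps17, Mrps18c, Mrps21, Mrps22, Mrps24, Mrps25, Mrps26, Mrps27, Mrps31, Mrps34 and Mrps35. Mrps36, the last, is now known as a component of the 2-oxoglutarate dehydrogenase complex. Mrpl51 (adjusted p = 0.0509, edgeR) lay just outside the cutoff and Mrpl3 just inside.

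By subunit, 19 of 50 tested large-subunit genes rose and none fell (edgeR, adjusted p under 0.05; median log2 fold change 0.28), and 6 of 26 small-subunit genes rose and 1 fell (median 0.17), where 24.0% of all genes tested were higher and 23.4% lower. Among large-subunit proteins with a bacterial counterpart 13 of 30 rose, at a median of 0.33. Mitochondria-specific proteins of the large subunit gave 6 of 20, at 0.20. In the small subunit, 3 of 16 genes with a bacterial counterpart rose and Mrps6 fell, at a median of 0.14, and 3 of 10 mitochondria-specific genes rose, at 0.31. Mrps18a and Mrps18b, which are related to bacterial S18, were counted with the mitochondria-specific genes, because Mrps18c takes the place of S18, and Mrpl55, which has no bacterial counterpart, was counted with the bacterial type. The order of the classes by median turned around between the subunits, and differences between classes were not tested. At an unadjusted p under 0.05 no large-subunit gene was lower either, and DESeq2 gave 15 higher and 0 lower of the 50, where 19.5% of all genes were higher. Without TNF+ 1 the large subunit had 6 genes higher and the small subunit 2 (background 17.2%), and without TNF- 1 they had 8 and 3 (18.0%). They had 11 and 4 without TNF+ 2 (18.6%), 13 and 3 without TNF+ 3 (21.1%), 11 and 3 without TNF- 2 (18.3%), and 21 and 8 without TNF- 3 (23.3%). Of the 30, 20, 16 and 10 genes of the classes above, 3, 3, 2 and 0 were higher without TNF+ 1, and 5, 3, 2 and 1 without TNF- 1. With both left out it was 2, 3, 0 and 0 (13.8%), and without TNF- 3 it was 14, 7, 4 and 4. On leaving out any other single lung the numbers lay between these.

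Vertebrates have 3 genes related to the bacterial protein S18, and all were measured. Mrps18b had 737, 717 and 675 normalized counts in TNF+ lungs and 551, 508 and 598 in TNF- lungs, and was called higher (log2 fold change 0.36 ± 0.11 SE, adjusted p = 0.0268, edgeR). That call was lost without any lung but TNF- 3, with an adjusted p of 0.127 without TNF+ 1, 0.0783 without TNF+ 2, 0.0505 without TNF+ 3, 0.0772 without TNF- 1 and 0.0937 without TNF- 2. The exons of Mrps18b share 30.5% of their bases with a gene on the opposite strand. Mrps18c, the counterpart that takes the place of S18 in the small subunit, had a log2 fold change of 0.23 (adjusted p = 0.214, edgeR). For Mrps18a the value was 0.01 (adjusted p = 0.936, edgeR), and its sign turned under other scalings. Differences among the 3 were not tested. Mrps30 and Mrps36 had log2 fold changes of 0.16 (adjusted p = 0.288, edgeR) and 0.26 (adjusted p = 0.195, edgeR).

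Levels per length differed widely within a particle whose proteins are built in at fixed numbers. On the scale of CPM per kilobase of median transcript, averaged over the 6 lungs, Mrpl52 was the highest at 102 and Mrps21, a homolog of bacterial S21, came next at 68.8. The lowest tested genes were Mrpl47 at 2.09 and Mrpl1, of the stalk that lets spent tRNA leave, at 1.78. Mrps21 and Mrpl47 did not pass the test (log2 fold changes 0.14 and 0.22, adjusted p = 0.316 and 0.244, edgeR), and Mrpl1 did (0.53 ± 0.18, adjusted p = 0.0364, edgeR). The call on Mrpl1 was lost without TNF+ 1 (adjusted p = 0.130), TNF+ 3 (0.0946), TNF- 2 (0.106) or TNF- 3 (0.0899). Annotated transcript length sets these levels as much as the counts do, since the transcript used in lung was not measured. Mrpl53, at 0, shares 88.0% of its exon bases with Gm42688 on the same strand, which had 44.4 to 92.0 normalized counts, so a 0 here does not say that the gene is silent.

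Of the 26 genes that passed, 22 matched a promoter window, and 6 of these held NRF1, 8 ETS and 3 YY1 letters. Among the 46 matched genes that did not pass, the numbers were 7, 17 and 18. The difference was not tested. The printed stretches hold the NRF1 match of Mrpl45, the ETS match of Mrpl52 and the YY1 match of Mrpl36 at 38, 47 and 30 bases before the RefSeq start.

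For proteins of the mitochondrial ribosome with other names, no call was made over all 6 lungs. Of Dap3, Ptcd3, Chchd1, Aurkaip1 and Gadd45gip1, 0 passed with edgeR, DESeq2 or limma-voom, where 47.4%, 40.3% and 47.0% of all genes passed. In edgeR 1 had an unadjusted p under 0.05, and the median was 0.21. Also in edgeR, 1 of the 5 was higher without TNF- 2 and 1 without TNF- 3, where 18.3% and 23.3% of all genes were. Chchd1 had the largest value, 0.44 (adjusted p = 0.110, edgeR), and Dap3 and Ptcd3 had 0.02 and -0.10.

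Assembly factors and ribosomal RNA modifiers had 4 of 23 higher and 5 lower in edgeR (median 0.12), beside 24.0% higher and 23.4% lower over all genes. Malsu1, which keeps the subunits apart until the large one is ready, had 328, 328 and 291 normalized counts in TNF+ lungs and 203, 212 and 181 in TNF- lungs (log2 fold change 0.67 ± 0.14 SE, adjusted p = 0.00527, edgeR). Ddx28, an RNA helicase of large-subunit assembly, had a log2 fold change of 0.61 (adjusted p = 0.00804, edgeR) and Rbfa, a small-subunit maturation factor, one of 0.41 (adjusted p = 0.0122, edgeR). With TNF+ 1 and TNF- 1 left out the adjusted p was 0.0612 for Malsu1, 0.126 for Ddx28 and 0.161 for Rbfa, and Rbfa had 0.0637 without TNF+ 1 and 0.0546 without TNF- 1. The other gene that rose was Gtpbp10, and those that fell were Dhx30, Mterf4, Nsun4, Mtg2 and Mettl15. On leaving out 1 lung the list had 2 (without TNF+ 1) to 4 higher and 0 (without TNF+ 1 or TNF- 2) to 3 lower, with 5 lower at an unadjusted p under 0.05 without TNF+ 1. With TNF+ 1 and TNF- 1 both left out it had 0 higher and 0 lower, where 13.8% and 17.4% of all genes were. At an unadjusted p under 0.05 in edgeR it then had 2 higher and 2 lower.

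Translation factors held 1 gene of 17 that passed in edgeR, beside 47.4% over all genes, and the median was 0.05. This was Mrrf, the factor that recycles ribosomes after termination. At an unadjusted p under 0.05 the list had 2 higher and 2 lower in edgeR. Without TNF- 3 it had 1 higher and 2 lower at an adjusted p under 0.05, and without any other single lung 0 higher and 1 lower. Mrrf had 439, 382 and 390 normalized counts in TNF+ lungs and 608, 695 and 561 in TNF- lungs. All TNF+ lungs were lower (log2 fold change -0.62 ± 0.13 SE, adjusted p = 0.00470, edgeR).

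Mitochondrial tRNA synthetases had 2 genes higher and 1 lower of 17 in edgeR (median 0.11), beside 24.0% higher and 23.4% lower over all genes, and on leaving out any 1 lung 0 or 1 higher and 1 lower. Vars2, for valine, had 758, 839 and 791 normalized counts in TNF+ lungs and 1141, 1209 and 1233 in TNF- lungs (log2 fold change -0.59 ± 0.09 SE, adjusted p = 0.00127, edgeR). Sars2, for serine, had a log2 fold change of 0.44 (adjusted p = 0.0434, edgeR), and lost the call without any lung but TNF- 3, with an adjusted p of 0.0932 without TNF+ 3 to 0.151 without TNF- 2. Lars2, for leucine, is set by 1 lung. It had 149169 normalized counts in TNF+ 1, the lung with the high Gm42418, and 9885 and 13326 in the other TNF+ lungs, against 3480, 7209 and 6707. Its log2 fold change of 3.31 (adjusted p = 0.0259, edgeR) was 0.97 without TNF+ 1 (adjusted p = 0.0418), and the adjusted p was 0.0761, 0.0706 and 0.0609 without TNF- 1, 2 and 3.

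Genes that copy, transcribe and process mitochondrial DNA and RNA had 3 of 15 higher and none lower in edgeR, with a median of 0.25, beside 24.0% higher over all genes. These were Ssbp1, which binds single-stranded mitochondrial DNA (log2 fold change 0.45, adjusted p = 0.0125, edgeR), Trmt10c of the mitochondrial RNase P (0.54, adjusted p = 0.0238, edgeR) and Tfam, which packages the DNA and starts its transcription (0.41, adjusted p = 0.0339, edgeR). DESeq2 called 2 higher and 0 lower, and 1 gene was lower at an unadjusted p under 0.05 in edgeR. The calls depended on the lungs. Without TNF+ 1 the adjusted p was 0.0681 for Ssbp1 and 0.0914 for Trmt10c, and without TNF- 1 it was 0.0595, 0.0718 and, for Tfam, 0.149. Without TNF- 1 the list had 0 of 15 higher, with 2 higher at an unadjusted p under 0.05, and without TNF+ 1, TNF+ 3 or TNF- 2 it had 1. Without TNF+ 3 it also had 1 lower, and with TNF+ 1 and TNF- 1 left out it had 0 higher and 0 lower, also at an unadjusted p under 0.05. Without other single lungs the adjusted p was 0.0854 (TNF+ 3) and 0.0793 (TNF- 2) for Trmt10c, and 0.0973 (TNF+ 2), 0.137 (TNF+ 3), 0.0778 (TNF- 2) and 0.0517 (TNF- 3) for Tfam.

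The mRNAs that this ribosome translates, the 13 encoded in mitochondrial DNA, all had negative log2 fold changes, with a median of -0.56. In edgeR and in DESeq2 5 fell and none rose, and at an unadjusted p under 0.05 it was 6 lower and none higher in both. Over all genes 23.4% were lower in edgeR and 20.9% in DESeq2. Those that fell in edgeR were mt-Nd2, mt-Nd4, mt-Nd4l, mt-Nd5 and mt-Cytb. The number was 1 of 13 without TNF+ 2, TNF+ 3 or TNF- 2 (19.0%, 20.8% and 19.5% lower over all genes), 4 without TNF- 1 (19.8%), and 5 without TNF+ 1 (20.1%) or TNF- 3 (23.4%). The mt-Nd genes encode subunits of complex I, and mt-Cytb encodes cytochrome b of complex III. mt-Nd4l had 6707, 6056 and 3825 normalized counts in TNF+ lungs and 11569, 19055 and 9499 in TNF- lungs (log2 fold change -1.27 ± 0.29 SE, adjusted p = 0.00809, edgeR). For mt-Nd4 and mt-Nd5 the values were -1.08 (adjusted p = 0.0246, edgeR) and -0.87 (adjusted p = 0.0286, edgeR). Those calls were lost without TNF+ 2 (0.0751 and 0.0604), TNF+ 3 (0.0653 and 0.0672) or TNF- 2 (0.0866 and 0.105). The sum over the 13 was 38635, 31195 and 22286 CPM in TNF+ lungs and 39958, 56541 and 35456 CPM in TNF- lungs, so the groups overlapped.

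Among regulators of mitochondrial biogenesis, 2 of 9 were higher and none lower in edgeR and in DESeq2, beside 24.0% and 19.5% higher over all genes, and at an unadjusted p under 0.05 none was lower in edgeR. Myc, a growth regulator that also drives nuclear genes for mitochondrial proteins, had 410, 388 and 469 normalized counts in TNF+ lungs and 221, 181 and 205 in TNF- lungs (log2 fold change 1.06 ± 0.14 SE, adjusted p = 0.000629, edgeR). Ppargc1b, a coactivator, had 170, 196 and 138 against 71, 49 and 29 (1.76 ± 0.32, adjusted p = 0.00264, edgeR). Nrf1, Gabpa and Yy1, genes of factors whose letters were searched in the promoters, did not pass. Nrf1 had a log2 fold change of -0.01 (adjusted p = 0.957, edgeR) and Gabpa, the DNA-binding part of GABP, one of 0.29 (adjusted p = 0.0849, edgeR). Yy1, given because its letters were searched, had one of 0.13 (adjusted p = 0.342, edgeR). For Ppargc1a, the related coactivator, and the nuclear receptor Esrra the values were -0.46 (adjusted p = 0.145, edgeR) and 0.33 (adjusted p = 0.171, edgeR). Esrra passed as higher without TNF- 3 (0.56, adjusted p = 0.00964).

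Genes that reflect mitochondrial content, of import, chaperones, carriers and cristae, had 7 of 14 higher and none lower in edgeR, with a median of 0.32, while DESeq2 gave 6 higher and 1 lower and 1 gene was lower at an unadjusted p under 0.05 in edgeR. Over all genes 24.0% were higher and 23.4% lower in edgeR, and 19.5% and 20.9% in DESeq2. With TNF+ 1 and TNF- 1 left out, 2 of the 14 were higher, where 13.8% of all genes were. Slc25a5, an ADP/ATP carrier, had 6152, 6567 and 5801 normalized counts in TNF+ lungs and 3647, 3504 and 3578 in TNF- lungs (log2 fold change 0.79 ± 0.09 SE, adjusted p = 0.000332, edgeR). Timm23 and Tomm20, of the inner and outer membrane import machinery, had log2 fold changes of 0.74 (adjusted p = 0.000663, edgeR) and 0.49 (adjusted p = 0.00393, edgeR), and Tomm20 had an adjusted p of 0.0724 with TNF+ 1 and TNF- 1 left out. The list's summed level was 1.21 times that of TNF- lungs, beside 1.18 times for the mitochondrial ribosomal protein genes. The cytosolic ribosomal protein genes, taken by the same kind of symbol rule, had 67 of 76 higher and 2 lower in edgeR, with a median of 0.64 and a ratio of sums of 1.55. On leaving out 1 lung, 33 (without TNF+ 1, 17.2% of all genes) to 72 (without TNF+ 3, 21.1%) were higher, with 37 without TNF- 1 (18.0%) and 39 without TNF+ 2 (18.6%). With TNF+ 1 and TNF- 1 both left out 16 of the 76 were higher and 1 was lower, where 13.8% and 17.4% of all genes were. Differences between the lists were not tested.

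**Figure D5:**
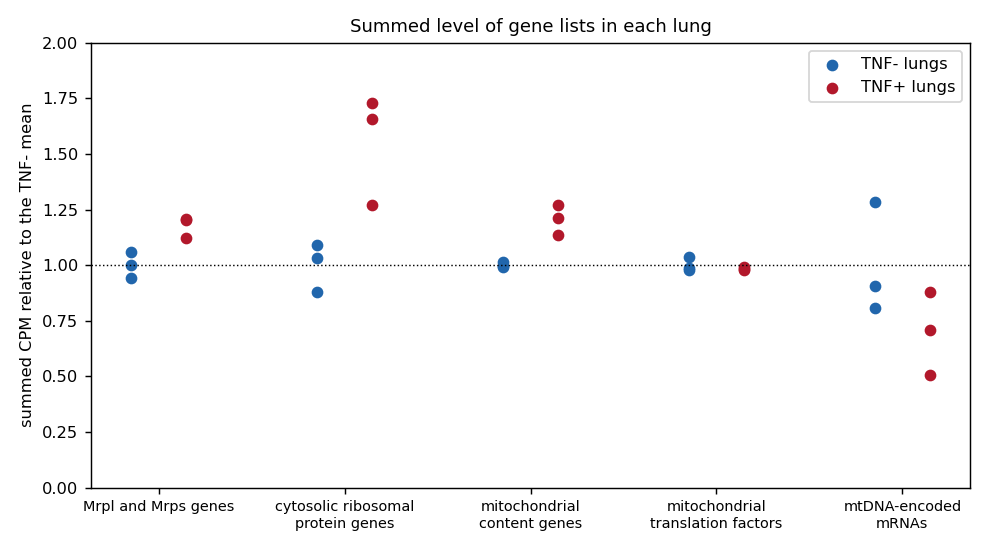
Summed CPM of 5 gene lists in each lung, divided by the mean of the TNF- lungs (y axis, ratio; dotted line at 1), with TNF- lungs in blue and TNF+ lungs in red. The Mrpl and Mrps genes and the content genes sit above 1 in all TNF+ lungs, the cytosolic ribosomal protein genes higher still, the translation factors near 1, and the mitochondrial mRNAs are spread with overlap.

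Markers of most cell types differed between the genotypes. Over all genes tested in edgeR, 24.0% were higher and 23.4% lower. In edgeR, all 6 macrophage markers were higher, with sums of 1965 to 2259 CPM in TNF+ lungs and 356 to 390 in TNF- lungs. Of B and plasma cell markers 4 of 5 were higher (1984 to 4088 against 100 to 314 CPM), of T cell markers 3 of 4 (308 to 450 against 29.7 to 51.7) and of proliferation markers 4 of 4 (100 to 132 against 34.3 to 55.6). All 5 alveolar type 1 markers (997 to 1246 against 2896 to 3135 CPM), 2 of 5 alveolar type 2 markers (14750 to 19169 against 21226 to 25797), 4 of 4 ciliated cell (55.3 to 86.8 against 155 to 251) and 3 of 3 club cell markers (5035 to 6662 against 14452 to 23900) were lower. Of the 5 alveolar type 2 markers, 2 others had positive log2 fold changes, and 0 were called higher. Also called lower were 5 of 5 endothelial (1163 to 1387 against 2294 to 2850 CPM), 4 of 4 fibroblast (778 to 803 against 1081 to 1749) and 5 of 5 cardiac muscle markers (284 to 347 against 984 to 1285). For skeletal muscle, 3 of 4 tested markers were lower (12.2 to 36.7 against 26.1 to 1464 CPM), for squamous epithelium 1 of 1 (0.156 to 0.785 against 1.24 to 3419) and for fat 1 of 3 (3.49 to 29.8 against 29.0 to 57.9). On leaving out any 1 lung other than TNF- 3, the fibroblast and T cell counts were 2 each. Over all genes, 17.2% to 21.1% were higher and 19.0% to 20.8% lower in these fits. The skeletal muscle and squamous counts were 0 on leaving out any 1 of the 3 TNF+ lungs, the skeletal muscle count was 1 without TNF- 1, and limma-voom called 0 of both these lists. The fat count was 0 without TNF+ 1, TNF+ 2 or TNF- 3 and 3 without TNF+ 3. No listed marker was at 0 in all lungs. Mitochondrial ribosomal protein genes are expressed in each of these cell types, and the part that the mix of cells had in their values was not tested.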

How the data were processed

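RNA-seq libraries (stranded poly(A) kit, single-end, 100 bases) of 6 whole lungs were used. The authors deposited raw counts per gene symbol, made per the labels with Trimmomatic 0.36, STAR 2.5.2b and featureCounts on GRCm38.p5. The annotation and strand setting of the counting are not given in the sources used here. A stranded count would keep opposite-strand genes apart. Counts were tested by genotype with edgeR 4.0.16 (quasi-likelihood, R 4.3.3), filterByExpr, TMM scaling and Benjamini-Hochberg adjustment over all 19199 genes kept, at a cutoff of 0.05. The study used DESeq2, which was run as an alternative (DESeq2 1.42.0), as was limma-voom (limma 3.58.1), beside other scalings, filters, a replicate block and the removal of each lung. The fits were tested on simulated data first, where far fewer genes were changed than passed here, so that the adjusted p was stricter. Changes as small as most of those here were mostly not called there, which does not measure the power of the real fit. A gene that did not pass is still not shown to be unchanged.

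Normalized counts are counts scaled to the mean TMM library size. CPM uses the TMM-scaled total, and log2 CPM a prior count of 2. Each mouse gave 1 library, so n counts animals. Depth was 25396923 to 32529408 counts per library, where 3 counts equal 0.0922 to 0.118 counts per 1e6 of the unscaled total.

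Named were up to 12 genes called in each direction by smallest p, the 2 highest and 2 lowest per length, the Mrps18 genes, Mrps30, Mrps36, up to 3 called genes per pathway list, and Ppargc1a, Nrf1, Gabpa and Esrra. Genes called or lacking a call otherwise are given by symbol. The genes, the pathway lists and the 14 marker lists were chosen with earlier results of these data known. They are described by counts and medians, with no test over a list. Promoter sequences are from RefSeq (GRCm38.p6), gene positions from GENCODE M21.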

Additional observations from a re-analysis of the deposited data

How the results depend on the processing

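The number of mitochondrial ribosomal protein genes that passed, 26 with 25 higher, was 15 with 14 higher with total counts in place of TMM scaling and 16 with 15 higher with no filter on low counts, where more genes were tested. With total counts 42.1% of all genes passed and 20.2% were higher, above the 18.2% of these genes, and with no filter 26.1% passed and 13.0% were higher, below their 19.5%. DESeq2 gave 21 (background 40.3%), limma-voom 27 (47.0%), and the number stayed within 1.5 times of 26 under DESeq2 size factors, upper quartile scaling, the stricter filter and the robust fit. Requiring 1 log2 unit left 1 gene, 1 higher and 0 lower. Leaving out 1 lung gave 9 to 30 genes called, 8 to 29 higher, and a median of 0.20 (without TNF- 1) to 0.28. Leaving out TNF+ 1 and TNF- 1 together, chosen after seeing the data, gave 6 called, 5 higher and a median of 0.16. The gene called lower was Mrps6 in each of these fits except the one with the fold threshold. The cause of these shifts was not tested, and fits on 5 or 4 lungs have fewer residual degrees of freedom.

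With the replicate number as a block, 15 genes passed, 14 of them higher (19.5% and 18.2%), where 40.0% of all genes passed and 19.9% were higher. Same-numbered lungs had correlations of deviations of -0.15, -0.00 and -0.24, and no source pairs them, so the block has no basis in the design.

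Values near 0 changed sign. Mrps18a (0.01) was -0.0194 with DESeq2, -0.0134 with its size factors, -0.0231 with total counts, -0.0322 with upper quartile scaling, -0.0547 to 0.0804 on leaving out 1 lung, and -0.0625 without TNF+ 1 and TNF- 1. Nrf1 (-0.01) was -0.0856 to 0.0252 on leaving out 1 lung and 0.00569 without both TNF+ 1 and TNF- 1. Summed levels of the genes moved by less than 1 SD with total counts, with and without Gm42418, with DESeq2 size factors and on leaving out 1 lung, and were not computed under other alternatives. Mrpl53, at 0 counts in every lung, could not be tested.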
